A study of Mus musculus with 18 samples.

Results

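The genes described here are 38 genes of the cardiac sarcomere, its Z disc and the proteins that assemble and surround it, out of 25230 gene symbols counted by RNA sequencing in mouse heart. They were taken by symbol from a list, and all 38 symbols were found. The hearts came from male C57BL/6J mice in which the left anterior descending coronary artery had been tied off to cause a myocardial infarction, and tissue was taken 3 days later. Atria and the infarcted and the non-infarcted part of the left ventricle (LV) were taken from mice given liraglutide and from mice given PBS, the vehicle, which makes 6 groups of 3 libraries and 18 libraries in all. Liraglutide is a long-acting agonist of the GLP-1 receptor. Every group carries the infarct, so non-infarcted LV is tissue of an infarcted heart, and sham-operated hearts were not analysed here. No source used here gives the dose or schedule of liraglutide or the age of the mice.

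The sarcomere is the contractile unit of striated muscle, in which myosin thick filaments pull on actin thin filaments. Thin filaments are anchored in the Z disc, titin spans from the Z disc to the M band, and the troponin and tropomyosin complex on actin makes contraction depend on calcium. In the heart these proteins are made mainly by cardiomyocytes, where desmin filaments tie the Z discs to each other and to the membrane, and dedicated chaperones fold myosin and protect the filaments under load. Mutations in many of these genes cause cardiomyopathy.

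Promoter sequence is shown first because serum response factor, which binds the CArG box, and the MEF2 factors are known activators of sarcomere genes. Of the 38 genes, 32 were found in RefSeq's promoter table for GRCm38.p6, with 43 windows of 250 bases before a gene start; the windows were read on both strands and set against 32851 such windows in all. A CArG box stood in 5 of the 43 windows (11.6%), those of Actc1, Ldb3, Myom1 and Nebl, beside 1.47% of all windows. A MEF2 site stood in 5 of 43 (11.6%), those of Mybpc3, Myoz2, Synpo2l and Ttn, beside 2.92% of all windows. The letters CATTCC, which TEAD factors bind, stood in 8 of 43 (18.6%), those of Flnc, Mypn, Nebl, Pdlim3, Tmod1, Tnnc1, Tnnt2 and Tpm1, beside 12.6% of all windows. No match overlapped a match of another motif, and a match of letters does not show that a factor binds there. A pair of genes with each of the first 2 motifs is printed on the gene's strand, 5′ to 3′, from 200 bases before the start, with the match in capitals and any exon bases left out. The stretch printed for Actc1 is chr2:114052888-114053075 (- strand), with its CArG box 47 bases before the start. That for Ldb3 is chr14:34588683-34588881 (- strand), with its CArG box 35 bases before the start. That for Mybpc3 is chr2:91117944-91118143 (+ strand), with its MEF2 site 90 bases before the start. That for Ttn is chr2:76982548-76982747 (- strand), with its MEF2 site 166 bases before the start.
Actc1: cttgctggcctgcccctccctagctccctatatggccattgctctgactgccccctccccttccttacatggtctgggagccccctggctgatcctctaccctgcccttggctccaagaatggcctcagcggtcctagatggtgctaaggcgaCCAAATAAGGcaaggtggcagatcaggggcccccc
Ldb3: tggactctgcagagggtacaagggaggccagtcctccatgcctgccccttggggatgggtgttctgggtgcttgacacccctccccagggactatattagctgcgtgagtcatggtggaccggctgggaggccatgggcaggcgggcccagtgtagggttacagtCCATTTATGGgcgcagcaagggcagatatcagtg
Mybpc3: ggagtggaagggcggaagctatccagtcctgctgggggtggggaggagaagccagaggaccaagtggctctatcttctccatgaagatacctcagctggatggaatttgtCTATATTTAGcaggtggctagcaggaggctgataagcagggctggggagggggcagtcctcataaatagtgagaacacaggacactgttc
Ttn: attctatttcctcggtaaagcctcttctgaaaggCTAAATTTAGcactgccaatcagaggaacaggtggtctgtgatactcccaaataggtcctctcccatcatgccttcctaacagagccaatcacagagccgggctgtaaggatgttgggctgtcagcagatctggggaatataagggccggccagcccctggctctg

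Levels are given as CPM, a gene's counts scaled to a common library total; the totals ran from 4280459 to 21853482 counts with a median of 11586459.5. The 38 genes took 7.19% to 8.48% of all counts in atria of liraglutide mice and 6.15% to 7.28% in atria of PBS mice. In infarcted LV the share was 7.55% to 8.53% with liraglutide and 8.19% to 8.55% with PBS. In non-infarcted LV it was 8.92% to 9.46% with liraglutide and 9.46% to 10.2% with PBS. With Flnc left out, the atrial shares were 6.62% to 7.24% with liraglutide and 5.83% to 6.75% with PBS, which overlap. Fold changes, standard errors (SE) and adjusted p-values come from edgeR's quasi-likelihood test on the counts of all genes that passed a filter on low counts, and a gene is called, or said to rise or fall, at an adjusted p under 0.05. All fold changes are on the log2 scale. The labelled chambers carried their markers: 6 atrial cardiomyocyte markers summed to 37883 to 49675 CPM in liraglutide atria and 46226 to 53420 CPM in PBS atria. Some atrial libraries stood apart. The sum of 5 ventricular cardiomyocyte markers was 589, 78.0 and 1582 CPM in liraglutide atria (replicates 1, 2 and 3) and 62.1 to 124 CPM in PBS atria, and an adipocyte marker sum of 325 CPM set PBS replicate 2 apart. Counts of calls that rest on liraglutide replicate 3 and PBS replicate 2 are therefore also given without them. Liraglutide replicate 1 had the lesser ventricular sum of the 2 liraglutide libraries above the PBS range, and counts without it as well come from a fit chosen after the data were seen, in which the lone liraglutide library left is assumed to vary like the others.

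**Figure D1:**
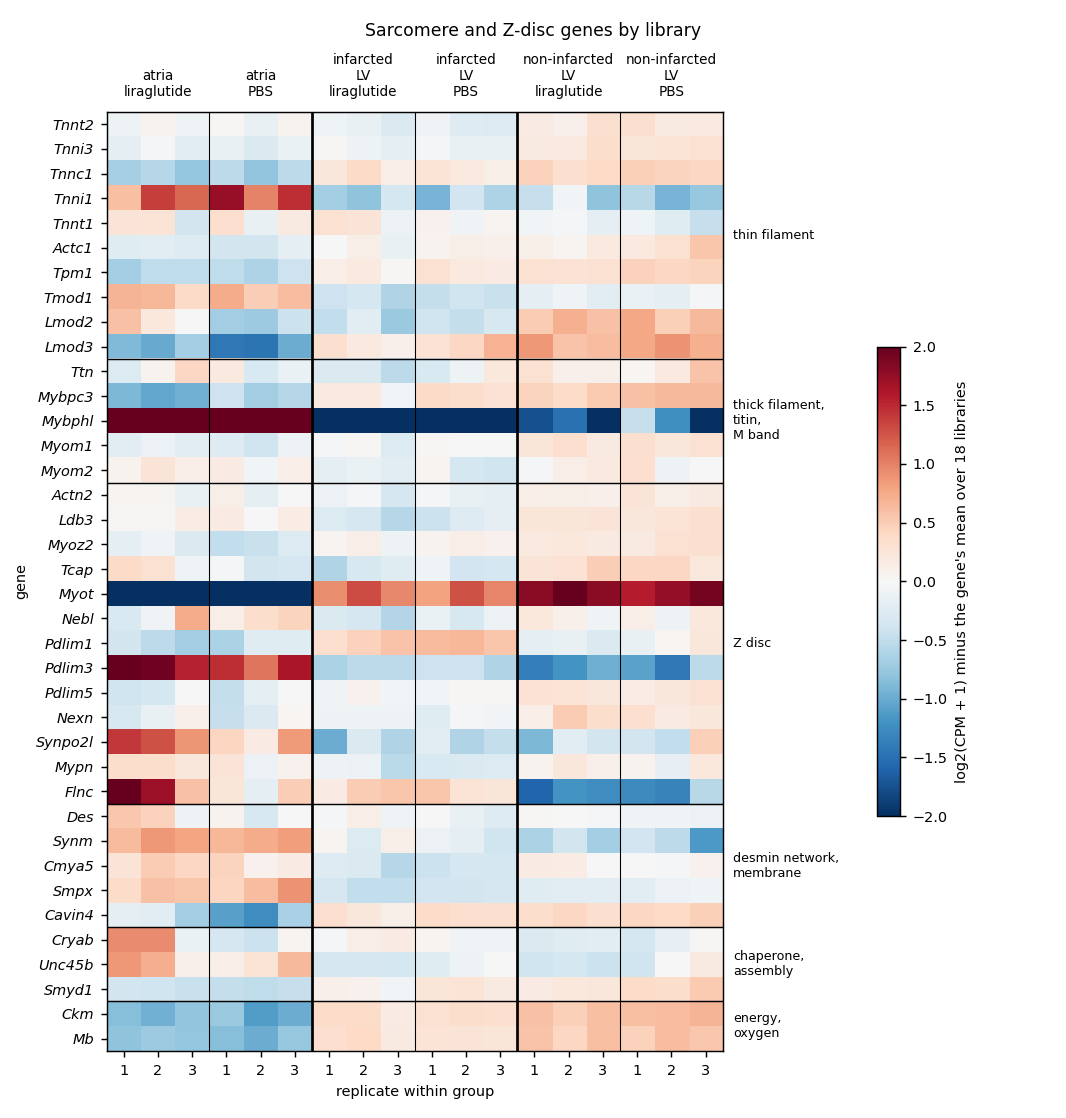
Heat map of the 38 genes, grouped by role, in each of the 18 libraries, as log2(CPM + 1) minus that gene's mean over the libraries, with colours that stop at 2 in each direction. By group means 21 of the 38 genes are highest in a non-infarcted LV group and 15 in an atrial group; Mybphl, Tnni1 and Pdlim3 stand out as high and Myot as low in atria.

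Levels were also divided by the joined length of all annotated exons of a gene (CPM per kilobase). The highest in atria was then that of Actc1, the main actin of the cardiac thin filament. It stood at 5812 ± 74.4 with liraglutide and 5567 ± 383 with PBS (SD, n = 3 each). Myoglobin, Mb, the oxygen-binding protein of muscle, came next in atria at 4120 ± 128 CPM per kilobase with liraglutide and 3842 ± 308 with PBS. In LV the order was turned round, with Mb first at 8657 CPM per kilobase in infarcted liraglutide LV, 8386 in infarcted PBS LV, 10113.5 in non-infarcted liraglutide LV and 10201.8 in non-infarcted PBS LV. At the low end stood Tnni1, slow skeletal troponin I, in every group and Mybphl in LV. The joined exons can be longer than the transcript made, and were 1618 bases for Actc1 and 7752 for Tnnt2. The order of genes depends on this length.

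**Figure D2:**
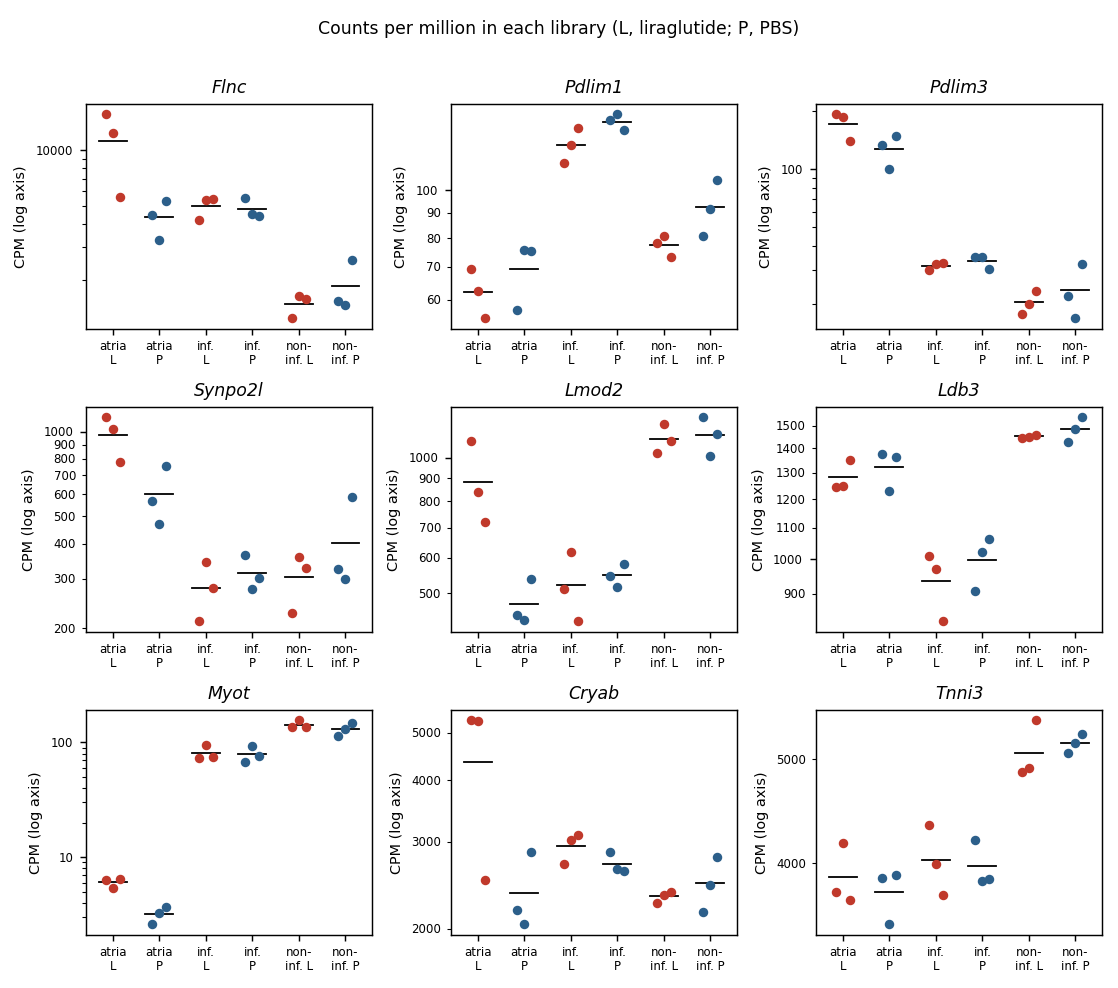
Level of selected sarcomere and Z-disc genes in each library, in CPM on a log axis, for atria, infarcted LV and non-infarcted LV, with liraglutide left of PBS; points are libraries and bars are group means. Lmod2 and Flnc separate infarcted from non-infarcted LV, while Myot separates atria from both LV regions.

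The infarcted LV was compared with the non-infarcted LV within each treatment, and the comparison with liraglutide shares no library with that with PBS. Of the sarcomere genes that passed the test, most were lower in the infarct: the actin-lengthening factor Lmod2 fell about as far in both treatments, by 1.10 and 1.09, with Myot, Tcap and Ldb3 of the Z disc after it, while Flnc, an actin crosslinker, and Pdlim1 rose. With liraglutide, 25 of the 36 tested genes were called, 5 higher and 20 lower, beside 49.8% of all tested genes (27.3% higher and 22.4% lower). With PBS, 26 of 36 were called, 2 higher and 24 lower, beside 47.4% of all tested genes (25.7% higher and 21.7% lower). The median fold change of the tested members was -0.28 with liraglutide and -0.34 with PBS, beside -0.02 for all tested genes in both; Tnni1 and Mybphl fell short of the filter. Both treatments called 18 of the same genes lower, 90% of the 20 with liraglutide and 75% of the 24 with PBS; over all genes the shares were 76.4% and 80.1%. Higher in both were 2, Pdlim1 and Flnc, 40% of the 5 with liraglutide and 100% of the 2 with PBS, beside 82% and 88.7% over all genes. These are whole-tissue libraries, in which fewer cardiomyocytes and less message per cardiomyocyte cannot be told apart.

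Markers of other cells moved between these regions too. The 5 fibroblast markers summed to 1509 to 1815 CPM in infarcted liraglutide LV and 620 to 786 CPM in non-infarcted liraglutide LV, and to 1596 to 1898 CPM in infarcted PBS LV and 620 to 798 CPM in non-infarcted PBS LV. All 5 fibroblast and all 4 endothelial markers were called higher in both treatments, and of 5 macrophage markers 5 were higher with liraglutide and 4 with PBS. The 5 ventricular cardiomyocyte markers summed to 12658 to 14724 CPM in infarcted liraglutide LV and 15652 to 17067 CPM in non-infarcted liraglutide LV, with 2 called lower. With PBS they summed to 13399 to 14623 CPM in infarcted LV and 16570 to 18159 CPM in non-infarcted LV, with 3 called lower. Of 18 other cardiomyocyte genes outside the sarcomere, 15 were lower with liraglutide (median -0.40) and 16 with PBS (median -0.41), and none was higher. Of 50 further sarcomere genes, 12 were higher and 19 lower with liraglutide (median -0.21), and 9 higher and 18 lower with PBS (median -0.27). The part of cell makeup in the members' changes was not tested.

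On the thin filament, no gene was higher in the infarct, 5 of the 9 tested were lower with liraglutide (median -0.31) and 8 of 9 were lower with PBS (median -0.38). Lmod2, leiomodin 2, which lengthens actin filaments at their pointed ends (chr6:24597762-24605414, mm10, + strand), had 511, 617 and 433 CPM in infarcted liraglutide LV, against 1027, 1188 and 1089 CPM in non-infarcted liraglutide LV. With PBS Lmod2 had 545, 517 and 581 CPM in infarcted LV, against 1230.0, 1007 and 1129 CPM in non-infarcted LV. No infarcted library came near the lowest non-infarcted one. Lmod2 fell by 1.10 with liraglutide (SE 0.129, adjusted p = 1.62e-05) and by 1.09 with PBS (SE 0.0923, adjusted p = 2.58e-07). Its paralogue Lmod3 fell by 0.51 with liraglutide (57.1 ± 4.42 CPM in infarcted against 80.5 ± 9.26 CPM in non-infarcted LV, SD, n = 3 each; SE 0.0933, adjusted p = 0.000344) and by 0.39 with PBS (69.1 ± 10.4 against 86.1 ± 5.72 CPM; SE 0.0925, adjusted p = 0.00294). Tmod1, tropomodulin, which caps the same pointed ends, fell by 0.31 with liraglutide (SE 0.0915, adjusted p = 0.0115) and by 0.38 with PBS (SE 0.0829, adjusted p = 0.00174); 1287 of its 3946 exon bases overlap Tstd2 on the other strand, and how strand was treated in counting is not given. The liraglutide call of Tmod1 was lost without non-infarcted liraglutide replicate 2 (adjusted p = 0.0579).

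The troponins fell by less. Tnnt2, cardiac troponin T, the subunit that holds troponin on tropomyosin, had 8127, 7776 and 7060.4 CPM in infarcted liraglutide LV, against 9716, 9282 and 10779.9 CPM in non-infarcted liraglutide LV. With PBS Tnnt2 had 8236, 7184 and 7178 CPM in infarcted LV, against 10776, 9826 and 9891 CPM in non-infarcted LV. Every infarcted library was below every non-infarcted one, and Tnnt2 fell by 0.40 with liraglutide (SE 0.101, adjusted p = 0.00448) and by 0.49 with PBS (SE 0.0813, adjusted p = 0.000181). Tnni3, cardiac troponin I, the inhibitory subunit, had 4339, 3996 and 3739.9 CPM in infarcted liraglutide LV, against 4859.7, 4911 and 5434 CPM in non-infarcted liraglutide LV, and fell by 0.35 (SE 0.0972, adjusted p = 0.00695). With PBS Tnni3 had 4209, 3854 and 3869 CPM in infarcted LV, against 5062, 5181 and 5282 CPM in non-infarcted LV, and fell by 0.44 (SE 0.0767, adjusted p = 0.000284). The groups were again apart in both treatments. Tnnc1, troponin C, the calcium-binding subunit, fell with PBS by 0.31 (SE 0.0748, adjusted p = 0.00356) and had -0.17 with liraglutide, not called (adjusted p = 0.166). Actc1 fell with PBS by 0.32 (adjusted p = 0.0201) and Tpm1, alpha-tropomyosin, by 0.28 (adjusted p = 0.00588), beside -0.15 and -0.20 with liraglutide, neither called (adjusted p = 0.237 and 0.0869). Without infarcted liraglutide replicate 2, Tnnc1 and Tpm1 were called with liraglutide too, and Tpm1 also by DESeq2. The PBS call of Actc1 was lost without any 1 of the 3 infarcted PBS libraries or non-infarcted PBS replicate 3 (adjusted p = 0.0565 to 0.0722). The slow skeletal troponins stayed minor. Tnnt1, slow troponin T, had 16.9, 16.4 and 12.4 CPM in infarcted liraglutide LV and 13.0, 13.3 and 11.8 CPM in non-infarcted liraglutide LV (0.25, SE 0.137, adjusted p = 0.139; 0.38, adjusted p = 0.0239 without infarcted replicate 3). With PBS Tnnt1 had 14.5, 12.8 and 14.02 CPM in infarcted LV and 12.6, 11.3 and 9.59 CPM in non-infarcted LV (0.23, SE 0.139, adjusted p = 0.189), so neither difference was called with all libraries in. Tnni1 was recorded with 7 counts over the 3 infarcted liraglutide libraries and 19 over the 3 non-infarcted ones, and with 6 and 6 counts in infarcted and non-infarcted PBS LV.

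In the thick filament, titin and the M band, 4 of 4 tested genes were lower with liraglutide and 2 of 4 with PBS (median -0.36 in both). Ttn, titin, the giant elastic protein whose exons cover 116825 bases, had 4460.4, 4485 and 3811 CPM in infarcted liraglutide LV, against 6759, 5862 and 5872 CPM in non-infarcted liraglutide LV, and fell by 0.55 (SE 0.102, adjusted p = 0.000394). With PBS Ttn had 4408, 5101 and 6330.2 CPM in infarcted LV and 5633, 6258 and 8138 CPM in non-infarcted LV, which overlap, and its fold change of -0.40 was not called (SE 0.214, adjusted p = 0.181). With the replicate number as a block, which pairs these PBS libraries, the PBS value of Ttn was -0.39 and was called (adjusted p = 1.47e-05). Mybpc3, cardiac myosin-binding protein C, which holds myosin heads in check, fell by 0.35 with liraglutide (SE 0.102, adjusted p = 0.00946) and by 0.35 with PBS (SE 0.0730, adjusted p = 0.00107). Myom1, the myomesin that crosslinks thick filaments in the M band, fell by 0.36 with liraglutide (SE 0.102, adjusted p = 0.00844) and by 0.34 with PBS (SE 0.0761, adjusted p = 0.00196). Its paralogue Myom2 fell by 0.31 with liraglutide (SE 0.0936, adjusted p = 0.0133) and was not called with PBS at -0.36 (adjusted p = 0.135). The PBS value of Myom2 was called with the block (adjusted p = 0.000121), by DESeq2 and in the fit of all 18 libraries. It was also called without infarcted PBS replicate 1 or non-infarcted PBS replicate 2. The liraglutide call of Myom2 was lost when all 18 libraries shared 1 fit (adjusted p = 0.0702) and without non-infarcted liraglutide replicate 3 (adjusted p = 0.0670).

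At the Z disc, falls and rises stood side by side: of 13 genes, 3 were higher and 8 lower with liraglutide, and 2 higher and 9 lower with PBS. Tcap, telethonin, which caps titin's end in the Z disc, had 834, 1008 and 1065 CPM in infarcted liraglutide LV, against 1509, 1545 and 1769 CPM in non-infarcted liraglutide LV, and fell by 0.75 (SE 0.108, adjusted p = 3.98e-05). With PBS Tcap had 1192, 964 and 984.9 CPM in infarcted LV, against 1685, 1684 and 1452 CPM in non-infarcted LV, and fell by 0.67 (SE 0.0922, adjusted p = 3.51e-05). The groups did not overlap in either. Myot, myotilin, which bundles actin at the Z disc, had 73.6, 95.3 and 74.9 CPM in infarcted liraglutide LV, against 136, 156 and 135 CPM in non-infarcted liraglutide LV, and fell by 0.82 (SE 0.112, adjusted p = 4.17e-05). With PBS Myot had 66.9, 93.2 and 76.2 CPM in infarcted LV, against 115, 131 and 146 CPM in non-infarcted LV, and fell by 0.78 (SE 0.137, adjusted p = 0.00130). Ldb3, a PDZ and LIM protein that binds alpha-actinin, was nearly level among the non-infarcted liraglutide libraries. It had 1009, 971 and 828 CPM in infarcted liraglutide LV, against 1444, 1450.5 and 1459.5 CPM in non-infarcted liraglutide LV, and fell by 0.65 (SE 0.0962, adjusted p = 5.33e-05). With PBS Ldb3 had 909, 1023 and 1065 CPM in infarcted LV, against 1427, 1486 and 1538 CPM in non-infarcted LV, and fell by 0.63 (SE 0.0812, adjusted p = 1.68e-05).

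Alpha-actinin itself, Actn2, which crosslinks the actin filaments of neighbouring sarcomeres, had 2634, 2783 and 2258 CPM in infarcted liraglutide LV, against 3131, 3097 and 3058 CPM in non-infarcted liraglutide LV. With PBS Actn2 had 2804, 2582 and 2507 CPM in infarcted LV, against 3404, 3077 and 3237 CPM in non-infarcted LV. The groups were apart, and Actn2 fell by 0.29 with liraglutide (SE 0.101, adjusted p = 0.0243) and by 0.36 with PBS (SE 0.0812, adjusted p = 0.00220). The liraglutide call was lost when all 18 libraries shared 1 fit (adjusted p = 0.0526) and without infarcted liraglutide replicate 1 or any 1 of the 3 non-infarcted liraglutide libraries (adjusted p = 0.0505 to 0.0674). Nexn, nexilin, an actin-binding protein, fell by 0.46 with liraglutide and 0.42 with PBS (adjusted p = 0.00131 and 0.000727). Nebl, nebulette, which runs from the Z disc along the thin filament, fell by 0.50 and 0.34 (adjusted p = 0.000710 and 0.0209). Mypn, myopalladin, a Z-disc and I-band scaffold, fell by 0.39 and 0.40 (adjusted p = 0.0118 and 0.00755), and Pdlim5, a PDZ and LIM adaptor, by 0.29 and 0.29 (adjusted p = 0.0137 and 0.00796). Myoz2, calsarcin 1, which links alpha-actinin to calcineurin, fell with PBS by 0.23 (adjusted p = 0.0221) and was not called with liraglutide at -0.18 (adjusted p = 0.111), though it was without infarcted replicate 2. The PBS call of Myoz2 was lost in the fit of all 18 libraries and without any 1 of the 3 infarcted PBS libraries or non-infarcted PBS replicate 3 (adjusted p = 0.0522 to 0.0829). That of Nebl was lost in the same fit and without infarcted PBS replicate 2 or non-infarcted PBS replicate 1 or 3 (adjusted p = 0.0504 to 0.107). With liraglutide, the call of Mypn was lost without non-infarcted replicate 2 (adjusted p = 0.0544) and that of Pdlim5 without infarcted replicate 1 (adjusted p = 0.0647).

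Filamin C, Flnc, which crosslinks actin at the Z disc and membrane and takes part in the repair of strained filaments, moved the other way (chr6:29433256-29461883, mm10, + strand). It had 4199.6, 5365 and 5491 CPM in infarcted liraglutide LV, against 1248, 1638 and 1585 CPM in non-infarcted liraglutide LV. With PBS Flnc had 5520.1, 4549.9 and 4440.4 CPM in infarcted LV, against 1546, 1480.0 and 2566 CPM in non-infarcted LV. The groups did not overlap in either treatment, and Flnc rose by 1.73 with liraglutide (SE 0.132, adjusted p = 2.24e-07) and by 1.31 with PBS (SE 0.311, adjusted p = 0.0266). The PBS call was lost without infarcted PBS replicate 1 (1.19, adjusted p = 0.0826), replicate 2 (1.36, adjusted p = 0.0694) or replicate 3 (1.38, adjusted p = 0.0555), without non-infarcted PBS replicate 1 (1.17, adjusted p = 0.0806), and with the replicate block (1.36, adjusted p = 0.088). Pdlim1, a PDZ and LIM protein of actin fibres, had 114, 124 and 134 CPM in infarcted liraglutide LV, against 78.0, 80.7 and 73.1 CPM in non-infarcted liraglutide LV, and rose by 0.66 (SE 0.0820, adjusted p = 1.05e-05). With PBS Pdlim1 had 139, 143 and 132 CPM in infarcted LV, against 80.6, 91.6 and 105 CPM in non-infarcted LV, and rose by 0.53 (SE 0.105, adjusted p = 0.00115). Pdlim3, a partner of alpha-actinin from the same family, had 30.0, 32.4 and 32.5 CPM in infarcted liraglutide LV, against 17.7, 20.1 and 23.5 CPM in non-infarcted liraglutide LV. It rose by 0.61 with liraglutide (SE 0.115, adjusted p = 0.000471), a call lost when all 18 libraries shared 1 fit (adjusted p = 0.0664), and was not called with PBS at 0.47 (adjusted p = 0.197), though it was without non-infarcted PBS replicate 3. Synpo2l, an actin- and alpha-actinin-binding protein of the Z disc, had -0.15 with liraglutide and -0.42 with PBS, neither called (adjusted p = 0.669 and 0.401).

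Around the myofibril, Synm, synemin, an intermediate filament protein that joins desmin, had 21.7, 16.99 and 22.8 CPM in infarcted liraglutide LV, against 13.0, 15.9 and 12.6 CPM in non-infarcted liraglutide LV, and rose by 0.53 (SE 0.130, adjusted p = 0.00319). Its PBS value of 0.39 was not called (adjusted p = 0.0631). That value was called with the replicate block (adjusted p = 0.011), with no filter and without non-infarcted PBS replicate 1. Desmin, Des, had -0.01 with liraglutide and -0.10 with PBS, neither called (adjusted p = 0.923 and 0.325). Cmya5, myospryn, a desmin-binding anchor, fell by 0.49 with liraglutide and 0.45 with PBS (adjusted p = 0.000849 and 0.000327), and Smpx, a small costamere protein, by 0.24 and 0.29 (adjusted p = 0.0214 and 0.00763). Cavin4, a coat protein of muscle caveolae, had -0.16 and -0.15, neither called (adjusted p = 0.128 and 0.137). Among chaperones, Cryab, the small heat shock protein alphaB-crystallin that guards desmin and titin, had 2706, 3020.4 and 3101 CPM in infarcted liraglutide LV, against 2259, 2342 and 2377 CPM in non-infarcted liraglutide LV. It rose by 0.32 with liraglutide (SE 0.0915, adjusted p = 0.00936), a call lost when all 18 libraries shared 1 fit (adjusted p = 0.356) and without non-infarcted liraglutide replicate 1 (adjusted p = 0.0666), and had 0.07 with PBS, not called (adjusted p = 0.611) except without non-infarcted PBS replicate 3. Unc45b, the chaperone that folds myosin, was not called in either, at 0.03 and -0.11 (adjusted p = 0.749 and 0.586), and Smyd1, a methyltransferase needed for sarcomere assembly, fell with PBS by 0.24 (adjusted p = 0.0304). Ckm, muscle creatine kinase, fell by 0.27 with liraglutide and 0.36 with PBS (adjusted p = 0.0263 and 0.00131), and Mb fell with PBS by 0.34 (adjusted p = 0.00101). The liraglutide value of Mb was -0.24, not called (adjusted p = 0.0623), with every infarcted library below every non-infarcted one; it was called with DESeq2, with library totals, with no filter and without infarcted replicate 2. With liraglutide, the call of Ckm was lost without non-infarcted replicate 1 or 3 (adjusted p = 0.0791 and 0.0876). The liraglutide call of Smpx was lost in the fit of all 18 libraries and without infarcted replicate 2 or non-infarcted replicate 2 or 3 (adjusted p = 0.0550 to 0.0687). The PBS call of Smyd1 was lost without any 1 of the 3 infarcted libraries or non-infarcted replicate 3 (adjusted p = 0.0521 to 0.137).

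**Figure D3:**
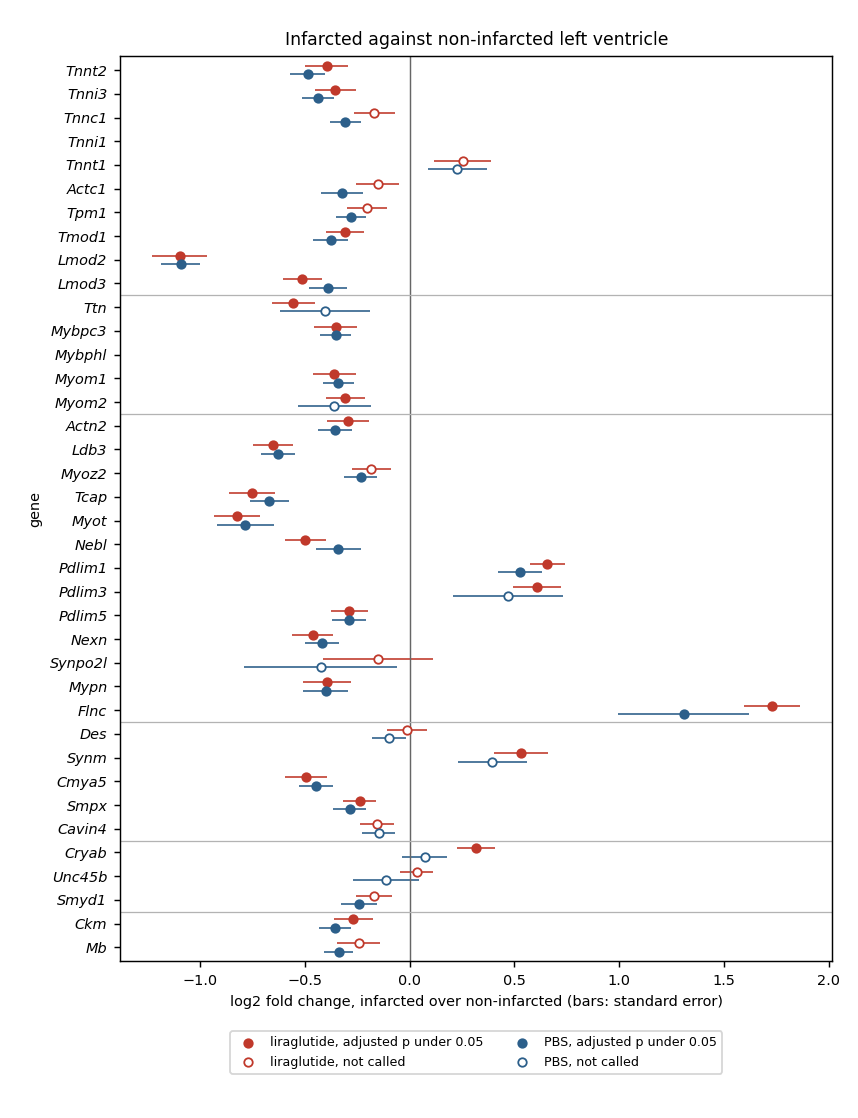
Log2 fold change of each tested member in infarcted against non-infarcted LV in liraglutide and in PBS mice, and bars of 1 SE; filled points passed the test at an adjusted p under 0.05. Lmod2, Myot, Tcap and Ldb3 lie farthest below 0 among the called genes, while Flnc and Pdlim1 lie above 0 in both treatments.

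Of 13 transcriptional regulators of sarcomere genes, 1 was higher and 6 lower in the infarct with liraglutide (median -0.21), and 1 higher and 7 lower with PBS (median -0.28). Of the genes whose promoters are printed, Ldb3 and Mybpc3 fell in both treatments, Ttn with liraglutide and Actc1 with PBS. Of the other genes with a CArG box or MEF2 site, Myom1 and Nebl fell in both treatments, Myoz2 with PBS and Synpo2l in neither. The part of the motifs in these changes was not tested.

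The atria were compared with the non-infarcted LV, again within each treatment; each of these comparisons shares its non-infarcted LV libraries with the infarct comparison of the same treatment. The atria had far more Pdlim3 and far less Myot, Lmod3, Ckm, Mb and Mybpc3 than the LV. With liraglutide, 25 of the 38 genes were called, beside 47.5% of all tested genes (24.6% higher and 22.9% lower). With PBS, 28 of 38 were called, beside 51.8% (26.3% higher and 25.6% lower). Mybphl and Tnni1 passed the filter through their atrial libraries and so had to differ. Of the other 36 genes, 8 were higher and 15 lower with liraglutide, and 5 higher and 21 lower with PBS. The median of the 36 was -0.21 with liraglutide and -0.52 with PBS, beside 0.01 over all tested genes in both. Scaling by library totals moved the median of all tested genes to 0.135 with PBS. Both treatments called 5 of these genes higher, 62.5% of the 8 with liraglutide and 100% of the 5 with PBS, beside 83.4% and 79.3% over all genes. Both called 15 of the same genes lower, 100% of the 15 with liraglutide and 71.4% of the 21 with PBS, beside 85.7% and 77.7% over all genes. With both genes counted in again, without atrial liraglutide replicate 3, 29 of the 38 were called with liraglutide (14 higher and 15 lower), beside 57.8% of all tested genes (29.3% higher and 28.5% lower), and without replicate 1 as well 28 were (14 higher and 14 lower), beside 49.5% (25.3% higher and 24.2% lower). Without atrial PBS replicate 2, 27 were called with PBS (8 higher and 19 lower), beside 47% (23.6% higher and 23.4% lower).

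Markers of other cells differed between atria and LV as well. Of 11 skeletal muscle markers, which include fast troponins, 6 passed the filter, and 5 were higher with liraglutide and 6 with PBS. They summed to 27.4 to 41.8 CPM in liraglutide atria, against 4.32 to 5.29 CPM in non-infarcted liraglutide LV, and to 33.9 to 52.6 CPM in PBS atria, against 3.96 to 4.80 CPM in non-infarcted PBS LV. Most of that was Atp2a1, the calcium pump of fast muscle, at a mean of 22.1 CPM in liraglutide atria and 24.7 CPM in PBS atria, while the fast myosins Myh1 and Myh4 had 1 count each over the 3 liraglutide atria and 0 over the PBS atria. All 3 mesothelial markers were higher in both treatments. They summed to 96.7 to 175 CPM in liraglutide atria, against 0.334 to 2.43 CPM in non-infarcted liraglutide LV. With PBS they summed to 134 to 208 CPM in atria, against 0.360 to 2.12 CPM in non-infarcted LV. At such LV levels the mesothelial markers passed the filter through their atrial libraries, as some skeletal muscle markers may have. Those calls were therefore close to fixed in advance. Of 5 neutrophil markers 4 were higher with liraglutide and 5 with PBS, and of 5 macrophage markers 1 and 5. The part of these cells in the members' differences was not tested.

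On the thick filament, leaving out Mybphl, 0 of 4 genes were higher and 2 lower in each treatment. Mybphl, the myosin-binding protein H-like protein known from atrial myofilaments (chr3:108364911-108380057, mm10, + strand), had 701, 771 and 580.3 CPM in liraglutide atria, against 3.72, 4.71 and 0.667 CPM in non-infarcted liraglutide LV. With PBS Mybphl had 939.6, 752 and 811 CPM in atria, against 10.7, 5.83 and 0 CPM in non-infarcted LV. Atria and LV were apart by far, with fitted log2 fold changes of 7.79 with liraglutide and 6.99 with PBS, given as a description because of the filter. The traces in LV were highest where Myl7, the atrial regulatory light chain, was also found: Myl7 had 32.1, 43.3 and 8.01 CPM in the non-infarcted liraglutide libraries and 81.9, 47.0 and 0 CPM in the PBS ones, and the part of atrial tissue in them was not tested. Of the summed CPM of Mybphl and Mybpc3, Mybphl made 27.9 ± 3.47% in liraglutide atria and 26.2 ± 0.363% in PBS atria (SD, n = 3 each). Mybpc3 had 1859, 1669 and 1767 CPM in liraglutide atria, against 4706, 4466 and 4947 CPM in non-infarcted liraglutide LV, and fell by 1.41 (SE 0.114, adjusted p = 1.15e-05). With PBS it fell by 1.32 (SE 0.111, adjusted p = 3.39e-06). Ttn had 4512, 5723 and 7292 CPM in liraglutide atria and 6232, 4409 and 5005 CPM in PBS atria, and was not called against LV in either, at -0.09 with liraglutide (SE 0.132, adjusted p = 0.602) and -0.49 with PBS (SE 0.187, adjusted p = 0.0539). The PBS value of Ttn was called by DESeq2 (-0.49, adjusted p = 0.0115) and in the fit of all 18 libraries (adjusted p = 0.0352). It was also called without atrial PBS replicate 1 (adjusted p = 0.0216) or non-infarcted PBS replicate 1 (adjusted p = 0.0337).

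On the thin filament, leaving out Tnni1, 1 of 9 genes was higher and 5 lower with liraglutide, and 1 higher and 7 lower with PBS. Tnni1 had 1.88, 3.95 and 3.20 CPM in liraglutide atria, against 0.379, 0.828 and 0.0834 CPM in non-infarcted liraglutide LV. With PBS Tnni1 had 5.35, 2.76 and 4.31 CPM in atria, against 0.294, 0 and 0.120 CPM in non-infarcted LV, where 6 counts were recorded over the 3 libraries. Its atrial libraries were above its LV ones in both treatments, and the skeletal muscle markers given above were higher in the same libraries. Tmod1 rose by 0.76 with liraglutide (SE 0.141, adjusted p = 0.00162) and 0.62 with PBS (SE 0.108, adjusted p = 0.000631). Lmod3 had 26.3, 24.0 and 30.4 CPM in liraglutide atria, against 91.1, 74.1 and 76.2 CPM in non-infarcted liraglutide LV, and fell by 1.58 (SE 0.111, adjusted p = 4.66e-06). With PBS Lmod3 had 17.6, 17.3 and 24.4 CPM in atria, against 84.8, 92.4 and 81.2 CPM in non-infarcted LV, and fell by 2.27 (SE 0.143, adjusted p = 4.25e-07). Tnnc1 fell by 1.05 with liraglutide and 1.17 with PBS (adjusted p = 0.000120 and 8.24e-06), and Tpm1 by 0.86 and 1.07 (adjusted p = 0.000109 and 1.28e-05). Tnnt2 had 8087, 9016 and 8151 CPM in liraglutide atria and 8750.3, 7804 and 9016 CPM in PBS atria. Against LV it had -0.23 with liraglutide, not called (SE 0.123, adjusted p = 0.148), and fell by 0.38 with PBS (SE 0.111, adjusted p = 0.0146), a call lost without non-infarcted PBS replicate 1 (adjusted p = 0.0611). Tnni3 had 3764, 4180.3 and 3700.4 CPM in liraglutide atria and 3876, 3510.2 and 3899.5 CPM in PBS atria, and fell by 0.38 with liraglutide (SE 0.124, adjusted p = 0.0299) and 0.59 with PBS (SE 0.105, adjusted p = 0.000754). The liraglutide call of Tnni3 was lost without atrial liraglutide replicate 1 or any 1 of the 3 non-infarcted liraglutide libraries, with the replicate block, and without atrial liraglutide replicates 1 and 3 together (adjusted p = 0.0598 to 0.128). Tnnt1, at 16.3, 16.5 and 10.3 CPM in liraglutide atria and 17.3, 12.05 and 15.5 CPM in PBS atria, was not called, at 0.19 (SE 0.226, adjusted p = 0.524) and 0.28 (SE 0.174, adjusted p = 0.206). Without the atrial libraries that stood apart Tnnt1 was called, at 0.45 without liraglutide replicate 3 (adjusted p = 0.00673; 0.0279 without replicate 1 as well) and 0.45 without PBS replicate 2 (adjusted p = 0.0361).

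At the Z disc, 3 of 13 genes were higher and 4 lower with liraglutide, and 2 higher and 8 lower with PBS. Pdlim3 had 192, 185 and 139 CPM in liraglutide atria, against 17.7, 20.1 and 23.5 CPM in non-infarcted liraglutide LV, and rose by 3.09 (SE 0.205, adjusted p = 8.05e-06). With PBS Pdlim3 had 132, 99.7 and 148 CPM in atria, against 22.04, 16.9 and 32.5 CPM in non-infarcted LV, and rose by 2.29 (SE 0.308, adjusted p = 0.00125). The lowest atrial library of Pdlim3 was above the highest LV one in both treatments. Flnc had 15570.4, 12331 and 5627 CPM in liraglutide atria, against 1248, 1638 and 1585 CPM in non-infarcted liraglutide LV, and rose by 2.95 (SE 0.429, adjusted p = 0.00153). With PBS Flnc had 4461, 3295 and 5311 CPM in atria, against 1546, 1480.0 and 2566 CPM in non-infarcted LV, and rose by 1.09 (SE 0.317, adjusted p = 0.0298). The PBS call of Flnc was lost with no filter (1.07, adjusted p = 0.0848), without atrial PBS replicate 1 (1.07, adjusted p = 0.0966) or replicate 3 (0.893, adjusted p = 0.088), and without non-infarcted PBS replicate 1 (0.958, adjusted p = 0.0786) or replicate 2 (0.92, adjusted p = 0.0648). Synpo2l had 1124, 1024 and 777 CPM in liraglutide atria, against 226, 360.0 and 328 CPM in non-infarcted liraglutide LV, and rose by 1.70 (SE 0.241, adjusted p = 0.000743); with PBS its value of 0.44 was not called (adjusted p = 0.373). Myot had the most negative fold change of the 38 genes in both treatments. It had 6.28, 5.42 and 6.498 CPM in liraglutide atria, against 136, 156 and 135 CPM in non-infarcted liraglutide LV, and fell by 4.56 (SE 0.121, adjusted p = 4.05e-08). With PBS Myot had 2.60, 3.24 and 3.67 CPM in atria, against 115, 131 and 146 CPM in non-infarcted LV, and fell by 5.53 (SE 0.168, adjusted p = 3.32e-09). Actn2 had 2959, 2965 and 2572 CPM in liraglutide atria and 3075, 2521 and 2876 CPM in PBS atria; against LV it had -0.12 with liraglutide, not called (SE 0.128, adjusted p = 0.478), and fell by 0.32 with PBS (SE 0.115, adjusted p = 0.0349), a call lost with library totals and without atrial PBS replicate 2 or non-infarcted PBS replicate 1 or 3.

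Around the myofibril, Synm had 33.0, 38.7 and 36.7 CPM in liraglutide atria, against 13.0, 15.9 and 12.6 CPM in non-infarcted liraglutide LV, and rose by 1.38 (SE 0.132, adjusted p = 3.02e-05). With PBS Synm had 33.5, 35.4 and 38.002 CPM in atria, against 15.8, 14.1 and 8.87 CPM in non-infarcted LV, and rose by 1.31 (SE 0.167, adjusted p = 7.32e-05). Smpx rose by 0.73 with liraglutide (SE 0.10, adjusted p = 0.000268) and, with 444, 507 and 616 CPM in PBS atria against 284, 303 and 309.6 CPM in non-infarcted PBS LV, by 0.68 with PBS (SE 0.131, adjusted p = 0.00132). Cavin4 went the other way, with 61.6, 54.7 and 83.5 CPM in PBS atria, against 175, 173 and 183 CPM in non-infarcted PBS LV, and fell by 1.54 (SE 0.165, adjusted p = 4.80e-05); with liraglutide it fell by 0.71 (SE 0.175, adjusted p = 0.00911). Smyd1 fell by 0.60 with liraglutide and 1.03 with PBS (adjusted p = 0.00148 and 1.15e-05). Cryab and Unc45b rose with liraglutide, by 0.94 and 1.02 (adjusted p = 0.0466 and 0.00762), and were not called with PBS, at -0.19 and 0.29 (adjusted p = 0.370 and 0.252). The call of Cryab was lost with no filter, with the replicate block, and without atrial liraglutide replicate 1 or 2 or any 1 of the 3 non-infarcted liraglutide libraries (adjusted p = 0.0572 to 0.151). Both energy and oxygen genes were lower in atria. Ckm had 469, 433 and 489 CPM in liraglutide atria, against 1269, 1169.6 and 1274 CPM in non-infarcted liraglutide LV, and fell by 1.42 (SE 0.10, adjusted p = 4.98e-06). With PBS Ckm had 503, 387 and 421 CPM in atria, against 1278, 1289 and 1350.3 CPM in non-infarcted LV, and fell by 1.70 (SE 0.120, adjusted p = 9.32e-07). The groups were far apart, as they were for Mb. Mb had 5962, 6344 and 6134 CPM in liraglutide atria, against 15465, 13901 and 15902 CPM in non-infarcted liraglutide LV, and fell by 1.29 (SE 0.114, adjusted p = 1.88e-05). With PBS Mb had 5804, 5241 and 6151 CPM in atria, against 14427, 15989 and 15247 CPM in non-infarcted LV, and fell by 1.53 (SE 0.115, adjusted p = 1.43e-06).

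**Figure D4:**
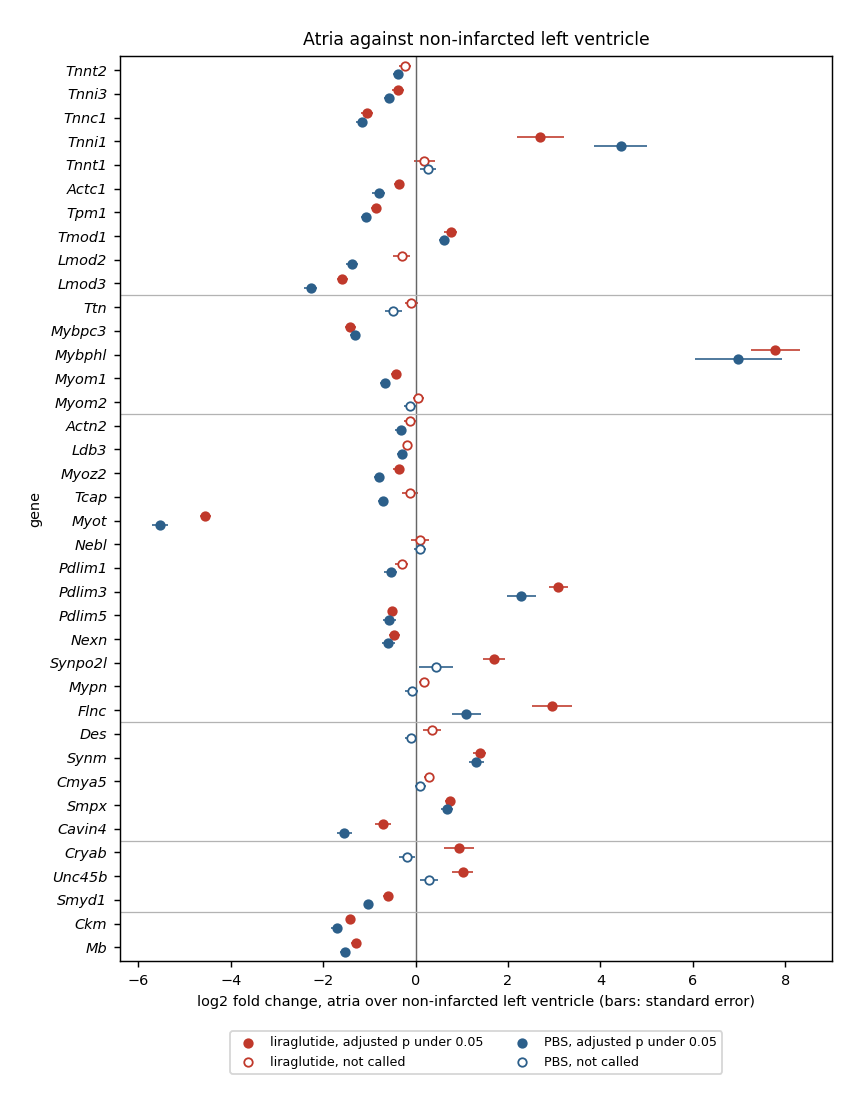
Log2 fold change of each member in atria against non-infarcted LV in liraglutide and in PBS mice, and bars of 1 SE; filled points passed the test at an adjusted p under 0.05. Pdlim3 lies above 0 and Myot and Lmod3 below 0 in both treatments, as do Mybphl and Tnni1 above 0, which passed the filter through their atrial libraries.

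Liraglutide was compared with PBS inside each region. In atria the thin filament regulator Lmod2 and the Z-disc genes Myot, Flnc and Synpo2l were higher in every liraglutide library than in any PBS library, but no member passed edgeR's test over all genes. It called 0 of 38 members, beside 0.00739% of all tested genes; 10 members had an unadjusted p under 0.05, beside 6.87% of all tested genes, and DESeq2 called 4 (Cryab, Lmod2, Myot and Synpo2l), beside 0.838% of the genes it tested. The members' median was 0.18, beside -0.00282 over all tested genes, and 32 of 38 were positive. Their signs come from the same libraries and are not independent. Beyond the 4 named, Smyd1 also lay above PBS in every library, making 5 genes, beside 2.94% of all tested genes, and 1, Mybpc3, lay below it in every library, beside 12% of all tested genes (14.9% for both directions). Of 49 further sarcomere genes 36 were positive and of 18 other cardiomyocyte genes 15, with 0 called in each.

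Lmod2 had 1091, 840.4 and 719 CPM in liraglutide atria, against 448, 436 and 537 CPM in PBS atria, a difference of 1.01 (SE 0.206, adjusted p = 0.363). Lmod3 had 26.3, 24.0 and 30.4 CPM in liraglutide atria and 17.6, 17.3 and 24.4 CPM in PBS atria, which overlap, a difference of 0.55 (SE 0.167, adjusted p = 0.528). Myot had 6.28, 5.42 and 6.498 CPM in liraglutide atria, against 2.60, 3.24 and 3.67 CPM in PBS atria, a difference of 1.05 (SE 0.218, adjusted p = 0.363). For Lmod2 and Myot, the genes with the smallest p, the lowest liraglutide library was above the highest PBS library. Flnc had 15570.4, 12331 and 5627 CPM in liraglutide atria, against 4461, 3295 and 5311 CPM in PBS atria, a difference of 1.49 (SE 0.426, adjusted p = 0.536). Synpo2l had 1124, 1024 and 777 CPM in liraglutide atria, against 566, 472 and 757 CPM in PBS atria, a difference of 0.81 (SE 0.245, adjusted p = 0.536). In Flnc and Synpo2l replicate 3 was the lowest of the liraglutide libraries. The same held for Cryab, at 5297, 5292 and 2508 CPM with liraglutide and 2185, 2041 and 2862 CPM with PBS (1.01, SE 0.345, adjusted p = 0.609). Mybpc3 had 1859, 1669 and 1767 CPM in liraglutide atria, against 2590.2, 2133 and 2314 CPM in PBS atria, a difference of -0.31 (SE 0.133, adjusted p = 0.718).

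For the troponins, titin and alpha-actinin in atria, Tnnt2 differed by 0.08 (SE 0.141, adjusted p = 0.965), Tnni3 by 0.15 (SE 0.137, adjusted p = 0.913) and Actn2 by 0.11 (SE 0.153, adjusted p = 0.959). Ttn differed by 0.25 (SE 0.179, adjusted p = 0.866), Tnni1 by -0.34 (SE 0.350, adjusted p = 0.923) and Tnnt1 by 0.06 (SE 0.260, adjusted p = 0.990). None of the 6 was called; the signs of Tnnt2 and Tnnt1 turned under scaling by library totals. The atrial groups also differed in their markers. Myl2, the ventricular regulatory light chain, had 275, 8.30 and 924 CPM in liraglutide atria, against 8.82, 5.95 and 2.08 CPM in PBS atria. The 5 neutrophil markers summed to 73.9 to 355 CPM in liraglutide atria and 192 to 650 CPM in PBS atria, and the 6 smooth muscle markers to 364 to 426 CPM and 352 to 395 CPM in the same order. Liraglutide replicate 2, whose ventricular sum lay within the PBS range, had Lmod2 at 840, Myot at 5.42, Flnc at 12331 and Synpo2l at 1024 CPM. These genes had been picked as higher in every liraglutide library, so replicate 2 had to lie above PBS. Without liraglutide replicate 3, 4 members were called (Cryab, Flnc, Lmod2 and Tcap), beside 0.768% of all tested genes, and without PBS replicate 2 as well, 5 were (Cryab, Des, Flnc, Lmod2 and Tcap), beside 0.597%. With liraglutide replicate 1 left out too, 6 were (Cavin4, Cryab, Flnc, Lmod2, Synpo2l and Tcap), beside 2.05%. The part of the marker differences in the members' values was not tested.

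In infarcted LV edgeR called 0 of 36 members, beside 0% of all tested genes, 3 had an unadjusted p under 0.05, beside 5.24% of all tested genes, and DESeq2 called 0. The members' median was -0.04, beside 0.00218 over all tested genes. Unc45b had 308, 309 and 306 CPM with liraglutide, against 329, 363 and 393 CPM with PBS, a difference of -0.22 (SE 0.0835, adjusted p = 0.903). Ttn had 4460.4, 4485 and 3811 CPM with liraglutide and 4408, 5101 and 6330.2 CPM with PBS, a difference of -0.29 (SE 0.123, adjusted p = 0.939). Of these, Unc45b was lower in every liraglutide library and Ttn overlapped. Of the members, 0 were higher and 3 lower in every liraglutide library than in any PBS library, beside 4.07% and 5.63% of all tested genes (9.69% together). Lmod3 differed by -0.24 (SE 0.102, adjusted p = 0.939), Mybpc3 by -0.21 (SE 0.101, adjusted p = 0.954) and Smyd1 by -0.17 (SE 0.0872, adjusted p = 0.956). Tnnt2 differed by 0.04 (SE 0.104, adjusted p = 0.989), Tnni3 by 0.03 (SE 0.0965, adjusted p = 0.992), Actn2 by -0.02 (SE 0.106, adjusted p = 0.993) and Tnnt1 by 0.18 (SE 0.147, adjusted p = 0.978).

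In non-infarcted LV edgeR called 0 of 37 members, beside 0% of all tested genes, 6 had an unadjusted p under 0.05, beside 4.34% of all tested genes, and DESeq2 called 0. The members' median was -0.07, beside -0.00206 over all tested genes, and 29 of 37 were negative. These signs, too, come from shared libraries and are not independent. Smyd1 had 678, 706 and 708 CPM with liraglutide, against 783, 773 and 873 CPM with PBS, a difference of -0.24 (SE 0.0832, adjusted p = 0.999). Mybpc3 had 4706, 4466 and 4947 CPM with liraglutide, against 5204, 5433 and 5419 CPM with PBS, a difference of -0.21 (SE 0.0761, adjusted p = 0.999). Both lay lower in every liraglutide library. Of the members, 1 was higher (Des) and 5 were lower in every liraglutide library than in any PBS library, beside 5.38% and 3.58% of all tested genes (8.96% together). Actc1 differed by -0.27 (SE 0.107, adjusted p = 0.999), Pdlim1 by -0.28 (SE 0.104, adjusted p = 0.999) and Unc45b by -0.36 (SE 0.146, adjusted p = 0.999). Tnnt2 and Tnni3 each differed by -0.05 (SE 0.0830 and 0.0796), Ttn by -0.14 (SE 0.153, adjusted p = 0.999), Actn2 by -0.09 (SE 0.0741, adjusted p = 0.999) and Tnnt1 by 0.15 (SE 0.127, adjusted p = 0.999).

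**Figure D5:**
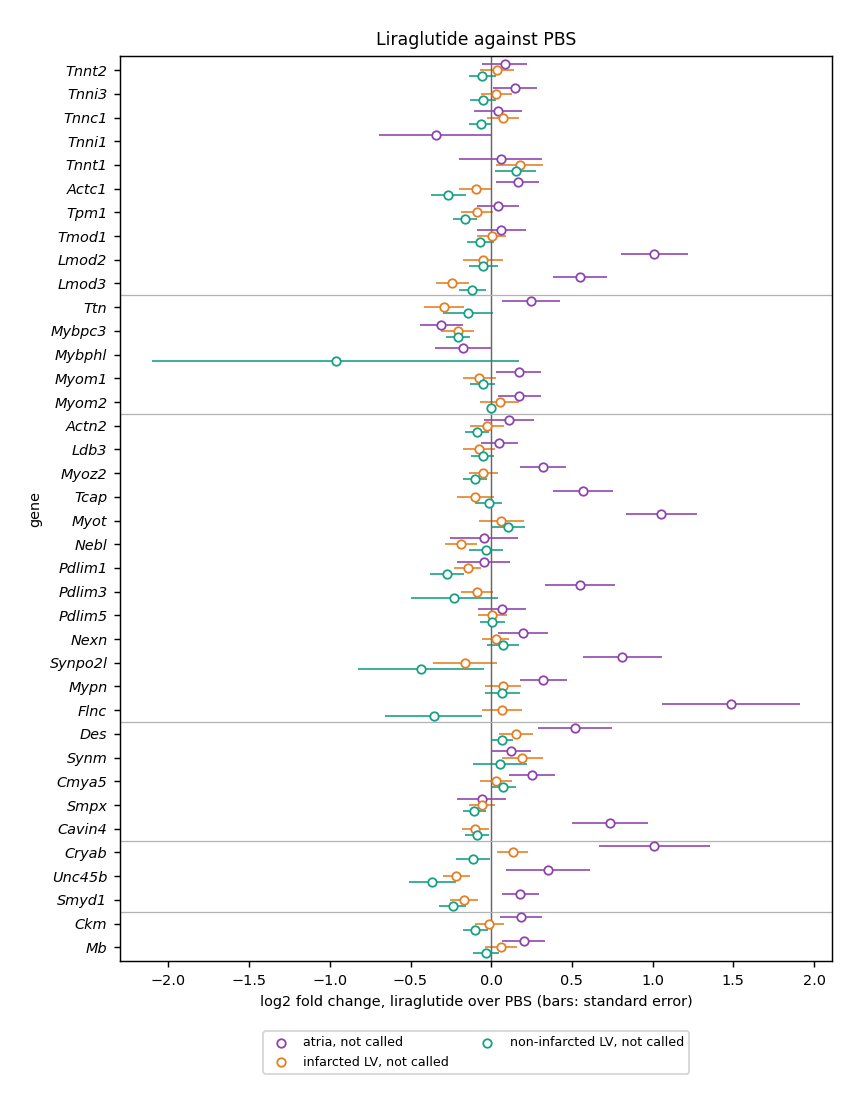
Log2 difference of each tested member, liraglutide against PBS, in atria, infarcted LV and non-infarcted LV, with bars of 1 SE (Myom2 in non-infarcted LV, almost at 0, is drawn without one). In atria 32 of 38 members lie above 0, with Flnc, Myot, Lmod2 and Cryab highest; none passed the test.

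Whether the liraglutide difference itself varied between regions was tested over all 18 libraries. Between atria and non-infarcted LV edgeR called 0 of 38 members, beside 0% of all tested genes, 13 had an unadjusted p under 0.05, beside 5.39% of all tested genes, and DESeq2 called 4 (Flnc, Lmod2, Lmod3 and Myot), beside 0.739% of the genes it tested. Without liraglutide replicate 3 of the atria 7 members were called, beside 0.839% of all tested genes, without PBS replicate 2 as well 3, beside 0.437%, and with liraglutide replicate 1 left out too 2 (Cavin4 and Cryab), beside 0.161%. Lmod2 differed by 1.08 (SE 0.251, adjusted p = 0.410), Myot by 0.98 (SE 0.245, adjusted p = 0.410) and Lmod3 by 0.70 (SE 0.180, adjusted p = 0.410). Cavin4 differed by 0.85 (SE 0.236, adjusted p = 0.489) and Flnc by 1.86 (SE 0.519, adjusted p = 0.505). All 5 are positive, that is, more positive in atria. Between infarcted and non-infarcted LV edgeR called 0 of 38, 0 had an unadjusted p under 0.05, beside 1.25% of all tested genes, and DESeq2 called 0. This contrast also tests whether the infarct change differs between treatments, so the genes called lower with PBS alone, Tnnc1 (0.14, SE 0.163, adjusted p = 1.00) and Actc1 (0.18, SE 0.164, adjusted p = 1.00) among them, were not shown to differ.

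The balance within pairs of related genes varied by region. Of the summed CPM of Lmod2 and Lmod3, Lmod3 made 3.06 ± 0.890% in liraglutide atria and 3.98 ± 0.316% in PBS atria (SD, n = 3 each). It made 10.02 ± 1.42% in infarcted liraglutide LV and 11.2 ± 1.12% in infarcted PBS LV, and 6.85 ± 1.17% in non-infarcted liraglutide LV and 7.19 ± 1.06% in non-infarcted PBS LV. In each treatment every infarcted library was above every non-infarcted one, and all were above the atria. Of the summed CPM of Myom1 and Myom2, Myom2 made 55.3 ± 0.575% in liraglutide atria and 55.3 ± 1.49% in PBS atria (SD, n = 3 each), and 45.4% to 47.9% in the means of the 4 LV groups.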

How the data were processed

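RNA was measured by poly(A)-selected, strand-specific sequencing, per the labels' protocols, in 18 libraries of 3 heart regions and 2 treatments. The authors deposited a table of raw counts per gene symbol; the submitters' processing notes name STAR 2.7.9a, the mm10 build and DESeq2. No source used here names what counted the reads, whether strand was used, or the gene models. Tmod1 is not alone in overlapping a gene on the other strand. So do exons of Mb (476 of 1492 bases), Cmya5 (2570 of 11850), Ckm (451 of 2913) and Cryab (252 of 1479), among others. The labels call the replicates biological, and p-values measure the spread between these libraries. CPM are counts divided by the column total. The 6 libraries of a comparison were fitted alone with edgeR 4.0.16 in R 4.3.3 (filterByExpr, TMM factors, robust quasi-likelihood F test, Benjamini-Hochberg adjustment over all tested genes, threshold 0.05), and differences of effects on all 18. SE is the size of the log2 fold change divided by the square root of F. The procedure was tested on simulated data with 200 changed genes. No pair of libraries agreed within sampling noise.

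Gene positions are from GENCODE vM21 and promoters from RefSeq GRCm38.p6. In each comparison between regions, the genes given in full were called, averaged 50 counts or more, and had groups apart in CPM (the 5 largest changes each way and the 3 smallest p), with 6 troponin, titin and alpha-actinin genes throughout. Members and lists were chosen with earlier results of these data known. Same-numbered libraries deviated together in infarcted and non-infarcted LV. Correlations were 0.135, 0.106 and 0.139 with PBS and 0.112, 0.0765 and 0.104 with liraglutide. In atria and non-infarcted LV they were 0.126, 0.0843 and 0.140 with PBS and 0.0208, -0.0349 and -0.0307 with liraglutide. The block is therefore given as an alternative. Alternatives were DESeq2 1.42.0, other scaling and filters, wider fits, the block and leaving out libraries.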

Additional observations from a re-analysis of the deposited data

How the results depend on the processing

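Over 1603 alternative values for single genes, sums and shares within pairs, 1509 were counted as unchanged. For a gene that meant the same direction and the same side of the threshold. For a sum or share it meant a mean that moved by less than 1 SD. Many of these genes were not called in the main fit and stayed so, so this count says little about how stable the calls are. In the region comparisons the number of members called stayed within 1.5 times under every alternative run: with each replicate left out in turn it was 21 to 28 for the infarct with liraglutide, 21 to 27 with PBS, 19 to 29 for atria with liraglutide and 25 to 28 with PBS, and 20 to 30 under the others. All alternatives together kept 16 of the 25 calls of the infarct with liraglutide and 21 of 26 with PBS. For atria they kept 19 of 25 with liraglutide and 24 of 28 with PBS. These atrial counts include Mybphl and Tnni1, which passed the filter through their atrial libraries and so had to differ. For liraglutide in atria, DESeq2 called 4 members (118 genes in all), the fit of all 18 libraries 3 (Lmod2, Lmod3 and Myot; 94 genes, 0.675%), leaving out atrial liraglutide replicate 3 and PBS replicate 2 5 (80 genes), and leaving out liraglutide replicate 1 too 6 (282 genes). Leaving out 1 replicate at a time gave 0 to 4, the 4 without liraglutide replicate 3 (105 genes). For the difference between atria and non-infarcted LV, DESeq2 called 4 (58 genes in all), leaving out those 2 atrial libraries 3 (Cavin4, Cryab and Lmod2; 61 genes), leaving out all 3 of them 2 (23 genes), and leaving out 1 replicate 0 to 7, the 7 without atrial liraglutide replicate 3 (118 genes). The fit without all 3 was added after the data were seen. The cause was not tested.

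The replicate number as a block gave 0 member calls in each liraglutide comparison. It gave 25 for the infarct with liraglutide, 28 with PBS, 21 for atria with liraglutide and 30 with PBS. Same-numbered libraries deviated together in both infarct comparisons and in atria against LV with PBS, but not with liraglutide. Whether a shared number marks 1 animal across regions is not given. Liraglutide and PBS libraries of the same replicate come from different mice.

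Signs turned only for values that were not called. With library totals Tnnt2 was -0.0182 and Tnnt1 -0.0582 for liraglutide in atria, and Tnnt1 -0.0180 for the difference between LV regions, where the block gave -0.00590. With replicates left out in turn, values for liraglutide in infarcted LV ran from -0.00555 to 0.122 for Tnnt2, -0.0185 to 0.0956 for Tnni3 and -0.118 to 0.0720 for Actn2. Tnnt1 ran from -0.110 to 0.307 for liraglutide in atria and Ttn from -0.262 to 0.0664 in non-infarcted LV. For atria against LV with liraglutide, Ttn ran from -0.188 to 0.0250 and Actn2 from -0.194 to 0.0170 (0.0135 without atrial liraglutide replicates 1 and 3). For differences between regions, Tnnt1 ran from -0.266 to 0.181 (atria), and Tnni1 from -2.87 to 0.178, Tnnt1 from -0.0745 to 0.156, Ttn from -0.345 to 0.00363 and Actn2 from -0.0157 to 0.167 (infarcted LV).

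The few counts of Tnni1 in LV limit the precision of its values there.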
